A study of Homo sapiens with 6 samples.

Results

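The PRDM genes encode zinc finger transcription regulators that carry a PR domain, a relative of the SET domain of histone methyltransferases, in front of their zinc fingers. The count table was searched for the symbols of 9 of them, Prdm1, Prdm2, Prdm4, Prdm6, Prdm8, Prdm9, Prdm10, Prdm15 and Prdm16, and all 9 were found among its 22989 genes. The group is built around Prdm1, which was known from the same libraries to be one of the most strongly lowered genes, so the members were chosen by the difference between KD and WT, which is given for them as a description, with no p-value. By the study's account, RNA was sequenced in 6 libraries of paclitaxel (PTX)-resistant MDA-MB-231 breast cancer stem cells (BCSC). These are the fraction of this human triple-negative breast cancer line with high aldehyde dehydrogenase activity. The labels give 3 libraries as LINC00115 KD, the knockdown of a long noncoding RNA by a short hairpin RNA (shRNA), and 3 as WT. All libraries share the line, its PTX resistance and the stem cell sort, and no treatment is named for either group. The study uses sh115-1 and sh115-2 as names of different hairpins and names sh115-2 for this sequencing. The KD columns are called sh115-1 to sh115-3. Their numbers were read as replicates, since the sample titles number these libraries as replicates. Whether the KD group mixes hairpins could not be checked. The labels call the controls WT where the study used a control shRNA. No label says whether the libraries of a group came from separate cultures, and p-values then measure the spread between these libraries, which may be technical.

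Prdm1 encodes Blimp1, a repressor that ends the B cell program in plasma cells and also acts in epithelia, T cells and germ cell precursors. It recruits corepressors such as histone deacetylases, G9a and Groucho proteins rather than methylating histones itself, and its binding sites resemble those of interferon regulatory factors, as in the promoter of the interferon beta gene, where it was first found. In breast cancer cells it is known as a repressor of the estrogen receptor gene downstream of the NF-kB subunit RelB.

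Library totals lay between 36979221 and 38799331 counts. The samples are labelled human, but the genes of the table carry mouse names, among them 4650 of the Gm type and 1129 of the Rik type. Mouse genes such as H2-K1, H2-D1 and Kap also have counts. The genes counted are thus mouse by name, and the reads themselves may be mouse, which was not tested. Symbols are printed as the table has them. The human sequences shown were matched by symbol apart from case, so they are not taken from the mouse genes counted. The table holds 0 genes named LINC00115, so the knockdown could not be checked and every direction rests on the labels. The 10 genes looked up for the line include the receptor genes Esr1, Pgr and Erbb2, expected to be low in a triple-negative line. Of the 10 genes, 6, Esr1 and Erbb2 among them, were higher in every KD library and 0 lower. Of all genes tested, 37.8% were higher in this way. Vim lay at 3418 and 3736 and Cd44 at 911 and 879 normalized CPM in WT and KD (CPM, counts scaled to a common library total), and Epcam and Pgr had at most 5 counts in any library. Krt8, Krt18 and Erbb2 were higher in KD by 1.59-fold, 1.83-fold and 1.62-fold. Of the aldehyde dehydrogenase genes, whose activity the sort used, Aldh1a1 had 12, 8 and 17 counts in WT and 52, 39 and 41 in KD (log2 fold change 1.82, adjusted p = 0.000925 by edgeR's quasi-likelihood test), and Aldh1a3 had 0 to 4 counts. Markers of other tissues differed between the groups. For all 10 lung genes each KD library exceeded each WT library (summed 1.78 to 2.07 CPM in WT and 73.4 to 83.7 CPM in KD). The same held for 7 of 10 kidney genes (16.7 to 19.5 and 44.2 to 48.0 CPM), and for 37.8% of all genes tested. The kidney gene Cubn went the other way, with 315, 315 and 307 counts in WT and 251, 215 and 223 in KD. Scgb1a1, Sftpc, Sftpb, Sftpa1, Sftpd, Kap, Acsm2 and Umod had 0 counts in every WT library and 57 to 1843 in KD libraries, and the part of such RNA in the results was not tested. In a bulk sample, fewer cells that express a gene and less RNA per cell cannot be told apart.

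The human gene of the member with the largest difference has 2 starts in RefSeq (GRCh38.p14), both on the plus strand of chromosome 6. The 200 bases before each are shown, 5′ to 3′, since they are the stretches in which factors of the study's pathway and the known inducers of the gene would be looked for. Capitals mark the core of the hypoxia response element bound by HIF1 (ACGTG or GCGTG, here matched on the minus strand) and the AP-1 element (TGANTCA), both searched on both strands. The first window is chr6:106086136-106086335 and the second chr6:106098741-106098940.
PRDM1, first start: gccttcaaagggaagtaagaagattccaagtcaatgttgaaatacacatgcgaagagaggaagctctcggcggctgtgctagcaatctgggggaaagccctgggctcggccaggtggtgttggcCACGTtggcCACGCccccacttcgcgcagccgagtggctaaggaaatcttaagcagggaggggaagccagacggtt
PRDM1, second start: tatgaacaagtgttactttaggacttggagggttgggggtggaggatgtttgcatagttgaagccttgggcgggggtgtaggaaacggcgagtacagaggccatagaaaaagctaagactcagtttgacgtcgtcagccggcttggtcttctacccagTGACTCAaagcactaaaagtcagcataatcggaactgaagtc
The first window held 2 matches to the hypoxia core, which begin 76 and 67 bases before the start, and 0 AP-1 matches. It also held 1 match to Blimp1's own core (GNGAAAG), not in capitals, 110 bases before the start. The second held 1 AP-1 match, 42 bases before the start, and 0 matches to the hypoxia core. Of 35116 such windows in the RefSeq table, 38.1% held a hypoxia core and 5.38% an AP-1 element. A match is a description of letters and not a site shown to be bound.

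Prdm1 lay near the limit of detection in the KD libraries. It had 709, 535 and 624 counts in the WT libraries and 20, 13 and 18 counts in the KD libraries. The groups were far apart, with the highest KD library far below the lowest WT library. Every KD count was still above 3, the count set here as the detection limit. The upper end of the 95% interval for a count of 0 was 3.69. In normalized CPM the level was 16.5 ± 2.32 in WT and 0.448 ± 0.0844 in KD (SD, n = 3 libraries each), which is a fitted log2 change of −5.19 (SE, the standard error, 0.19), or 36.4-fold lower. The summed counts, 1868 and 51, gave a 95% interval of 27.8 to 49.4 for this fold (exact binomial, counting error only). Of the 13497 genes tested, 17 had a more negative fitted change, and 99.0% had a smaller change in either direction.

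**Figure D1:**
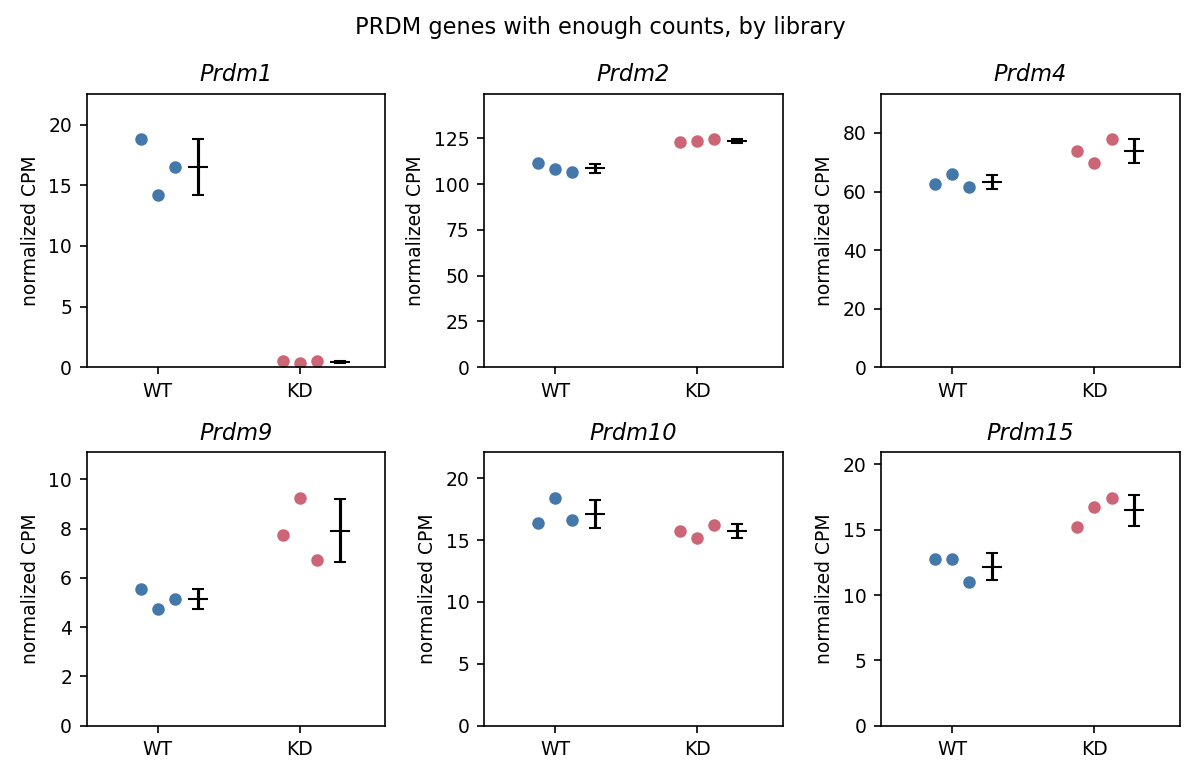
Normalized CPM of the 6 PRDM genes with enough counts to be tested, in each WT and KD library (points), with the mean and SD of the 3 libraries beside them. Each panel has its own linear axis from 0. Prdm1 lies between 14.2 and 18.8 CPM in WT and between 0.354 and 0.517 CPM in KD, while the group means of the other genes differ by at most 1.54-fold.

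Of the other 8 members, 5 had enough counts to be tested, and their differences were all smaller than a fold change of 2. Prdm2 (RIZ, a histone H3K9 methyltransferase described as a tumour suppressor) had 4197, 4079 and 4031 counts in WT and 4747, 4526 and 4731 in KD. All KD libraries lay above all WT libraries, by a narrow margin, at 124 ± 0.942 against 109 ± 2.43 CPM (SD, n = 3 each), which is a fitted log2 change of 0.18 (SE 0.04). Prdm4, a partner of the arginine methyltransferase Prmt5 and of the neurotrophin receptor, had 2363, 2487 and 2320 counts in WT and 2860, 2562 and 2959 in KD. Its groups did not overlap either, and its log2 fold change was 0.22 (SE 0.05).

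Prdm9, the meiotic H3K4 methyltransferase that places recombination hotspots, had 209, 179 and 195 counts in WT and 300, 340 and 256 in KD. The KD libraries were higher and also more spread, at 7.92 ± 1.27 against 5.15 ± 0.403 CPM (SD, n = 3 each), and the log2 fold change of 0.62 (SE 0.15) was the largest positive value among the members. Germ cell markers were near 0: the summed level of the 4 markers in the table, Ddx4, Sycp3, Spo11 and Dmc1, was at most 0.0529 CPM in WT and 0.263 CPM in KD. Human PRDM9 has a near-identical copy, PRDM7, and the table, whose genes are mouse by name, has 0 genes of that name. Whether any reads counted for Prdm9 came from such a copy could not be checked. Prdm15, which in stem cells is known to keep up transcription of the ERK inhibitor Spry1, had 480, 483 and 415 counts in WT and 588, 615 and 663 in KD. It lay higher in every KD library, with a log2 fold change of 0.44 (SE 0.10).

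Prdm10, an activator of the folliculin gene Flcn, was the one other member with a negative value. It had 616, 696 and 627 counts in WT and 610, 557 and 617 in KD. The raw counts of the groups overlapped, the normalized levels of 17.1 ± 1.14 and 15.7 ± 0.538 CPM (SD, n = 3 each) just did not, and the log2 fold change was −0.12 (SE 0.09). Flcn itself was lower, with a log2 fold change of −0.40 (SE 0.06, adjusted p = 1.20e-07 by edgeR's quasi-likelihood test with Benjamini-Hochberg adjustment), which is under a fold change of 2. Eif3b, listed beside Flcn among genes tied to the other members, went the other way. Its log2 fold change was 0.14 (SE 0.03, adjusted p = 0.000223 in the same edgeR fit).

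The remaining members were at the detection limit in every library, where 3 counts correspond to between 0.0776 and 0.0817 CPM. Prdm16, the switch to brown fat, had 0 counts in every WT library and 2, 1 and 1 counts in KD. Prdm6, a repressor of smooth muscle genes, had 1 count in KD replicate 1, and Prdm8, a neural repressor, had 1 count in KD replicate 2, with 0 in all other libraries. No fold is given for these genes, and their presence or absence could not be decided at this depth.

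By the thresholds of the study, an adjusted p under 0.05 and a fold change over 2, 1 of the 6 members tested was called lower (Prdm1) and 0 higher, where 9.98% of all genes tested were called lower and 10.2% higher. Without the threshold on the fold, 1 was lower and 4 (Prdm2, Prdm4, Prdm9 and Prdm15) were higher, against 36.7% of all genes in each direction. Called in either direction were 20.2% of all genes tested. The CPM of the groups did not overlap for all 6, with KD below WT for 2 of them (37.8% of all genes tested) and above for 4 (37.8%), or 75.6% in all. These counts only sort genes that were chosen with the difference known, and are no test of them. Summed over the 9 members, the level moved little, from between 217 and 228 CPM in WT to between 235 and 243 CPM in KD. Without Prdm1 the sum lay between 201 and 210 CPM in WT and between 234 and 243 CPM in KD. Prdm1 held between 6.32% and 8.27% of the members' counts in WT and between 0.151% and 0.219% in KD.

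Among relatives outside the list, Mecom was lower and Prdm11 and Zfpm2 were higher in KD. Of 9 further genes of the family or with a related domain, 8 were in the table and 5 were tested (median log2 fold change 0.48, all genes −0.0061). Called were 1 lower (20%, against 9.98% of all genes tested) and 2 higher (40%, against 10.2%). These genes were listed with earlier results known, so the shares are a description only. Mecom (PRDM3, EVI1), a stem cell and leukaemia gene and the close relative of Prdm16, had 215, 191 and 161 counts in WT and 46, 44 and 22 in KD. Every KD library lay far below every WT library, and Mecom fell with a log2 fold change of −2.34 (SE 0.26, quasi-likelihood adjusted p = 8.33e-10 in edgeR). Prdm11, a PR domain gene described as a tumour suppressor in lymphoma, had 344, 295 and 423 counts in WT and 729, 743 and 731 in KD. It rose just past a fold change of 2, with a log2 value of 1.05 (SE 0.11, adjusted p = 1.00e-10 in the same edgeR fit), and without WT replicate 2 it fell short of it, at 0.94.

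The FOG proteins Zfpm1 and Zfpm2, cofactors of GATA factors, were both higher in KD. Zfpm2 rose from 12, 13 and 11 counts to 54, 99 and 110 counts, a log2 fold change of 2.86 (SE 0.41, quasi-likelihood adjusted p = 1.52e-07 in edgeR). Of 6 smooth muscle markers, 4 were also higher in every KD library, against 37.8% of all genes tested, and Cnn1 and Myocd overlapped between the groups. The summed level of the 6 was 0.318 to 0.662 CPM in WT and 1.45 to 2.59 CPM in KD. The part of these markers in the result was not tested. Zfpm1 had a log2 fold change of 0.48 (SE 0.06, adjusted p = 2.36e-09), and Zfp408 (PRDM17) one of −0.24 (SE 0.07, adjusted p = 0.00326), both under a fold change of 2. Prdm12 and Prdm14 had at most 1 count in any library, and the table has 0 genes named Prdm13.

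**Figure D2:**
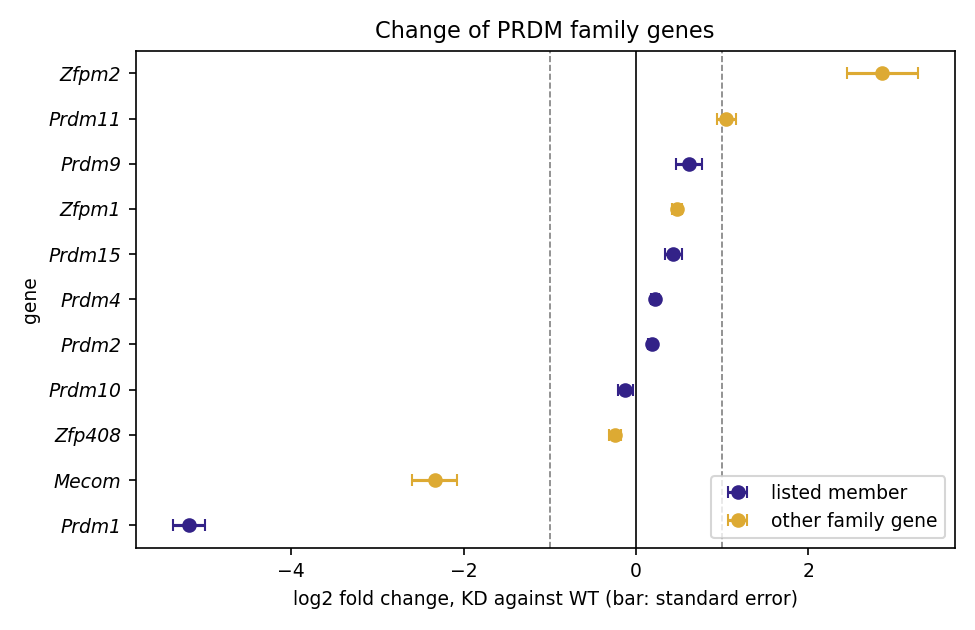
Fitted log2 fold change, KD against WT, of the 6 tested members (dark) and 5 tested relatives (yellow), with standard errors as bars and dashed lines at a fold change of 2. Prdm1 at −5.19 and Mecom at −2.34 stand apart on the left, Zfpm2 at 2.86 on the right, and the remaining genes lie between −0.24 and 1.05.

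Among genes that Blimp1 is known to repress in lymphocytes, the B cell factor gene Pax5 stood out. It had 80, 93 and 85 counts in WT and 2778, 2638 and 2591 counts in KD, libraries that were close together within each group and far apart between them. Pax5 rose from 2.28 ± 0.172 to 70.6 ± 2.09 CPM (SD, n = 3 each), which is a fitted log2 change of 4.95 (SE 0.09, quasi-likelihood adjusted p = 2.88e-32 in edgeR). Markers of B cells were near 0 in both groups: Cd79b had at most 5 counts and Cd79a at most 8 in any library, and the summed level of the 6 B and plasma cell markers in the table was between 0.0531 and 0.265 CPM in WT and between 0.158 and 0.284 CPM in KD. T cell markers were likewise near 0, with 0 counts of Cd3e.

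Ifnb1, which codes for interferon beta and was chosen after its values were seen, had 1, 5 and 1 counts in WT and 40, 66 and 87 in KD. It rose from 0.0618 ± 0.0612 to 1.71 ± 0.633 CPM (SD, n = 3 each), which is a fitted log2 change of 4.71 (SE 0.60, quasi-likelihood adjusted p = 1.56e-08 in edgeR). Myc, the best known target of Blimp1, had 7293, 7085 and 7616 counts in WT and 14234, 13044 and 14431 in KD. It was higher by 0.92 on the log2 scale (SE 0.04, adjusted p = 7.03e-22), just short of a fold change of 2. Id3 went the other way, with a log2 fold change of −0.81 (SE 0.07, adjusted p = 2.70e-12), and Bcl6 (0.32) and Tcf7 (0.52) had small positive values. Fos and Bach2 overlapped between the groups. Of the 17 listed genes, 16 were in the table and 8 were tested, with a median of 0.42. Called were 2 higher (25%, against 10.2% of all genes tested) and 0 lower (against 9.98%). The list was written with earlier results of these libraries known, so its shares are no independent evidence. Others, among them Ciita and Spib, had too few counts to be tested.

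The promoters of these targets are shown because they carry, or lack, the letters that Blimp1 is known to bind. The windows are the 200 bases before the RefSeq start of the human genes on the minus strand, chr9:21077943-21078142 and chr9:37034269-37034468 (GRCh38.p14), 5′ to 3′, with capitals for the core GNGAAAG, searched on both strands.
IFNB1: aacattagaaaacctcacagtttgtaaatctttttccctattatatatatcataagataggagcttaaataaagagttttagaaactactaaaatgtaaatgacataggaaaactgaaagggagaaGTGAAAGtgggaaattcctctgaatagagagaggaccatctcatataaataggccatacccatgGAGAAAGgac
PAX5: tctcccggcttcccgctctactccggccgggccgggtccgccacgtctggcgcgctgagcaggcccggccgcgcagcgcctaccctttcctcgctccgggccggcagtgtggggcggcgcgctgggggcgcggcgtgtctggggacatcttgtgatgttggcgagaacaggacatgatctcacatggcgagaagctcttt
The IFNB1 window held 2 matches, 74 and 10 bases before the start, and the PAX5 window 0. Among all windows of this length, 15.3% held at least 1. In PAX5, the letters are not in this window, which says nothing of sites elsewhere in the gene. The hypoxia core, not in capitals here, had 2 matches in the PAX5 window, 159 and 68 bases before the start, and 0 in the IFNB1 window. Among all windows, 38.1% held that core, so it was not particular to PRDM1.

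Genes of antigen presentation by MHC class I, which Blimp1 is known to repress against the activator Irf1 in the intestinal epithelium, had positive log2 fold changes in KD throughout. All 12 listed genes were tested. Called were 6 higher (50%, against 10.2% of all genes tested) and 0 lower (against 9.98%). The median log2 fold change was 1.17, against −0.0061 over all genes. The list was written with results of these libraries known, so it adds no independent evidence of direction. The immunoproteasome subunit Psmb9 had 76, 104 and 151 counts in WT and 1651, 1570 and 1678 in KD, and it rose with a log2 fold change of 3.88 (SE 0.12, quasi-likelihood adjusted p = 4.67e-25 in edgeR). The peptide transporter Tap1 had 1081, 1021 and 1075 counts in WT and 6917, 6875 and 6987 in KD, a rise of 2.71 (SE 0.05). Psmb8 rose by 1.92 (SE 0.04), and the activator Irf1 was higher by 0.91 (SE 0.05, adjusted p = 1.10e-18), under a fold change of 2.

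The smallest values of the group were those of B2m (0.11), the MHC activator gene Nlrc5 (0.59) and the heavy chain gene H2-K1 (0.60). Without a threshold on the fold, all 12 genes were higher, against 36.7% of all genes tested. Of 7 markers of macrophages, cells that also present antigen, Lyz2 and Cd74 were higher in every KD library and Csf1r, at 0 to 3 counts, was lower. Of all genes tested, 37.8% were higher and 37.8% lower in this way. Summed levels of the 7 markers were 39.7 to 53.8 CPM in WT and 54.6 to 59.4 CPM in KD, most of it Cd68. Their part in the result was not tested.

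The corepressor genes of Blimp1 had counts in every library. Of 11 corepressor genes, 1 was called lower (9.09%, against 9.98% of all genes tested) and 0 higher (against 10.2%). Their median log2 fold change was −0.25. The called gene was the Groucho gene Tle2, which had 244, 239 and 234 counts in WT and 96, 91 and 73 in KD. It fell by 1.46 on the log2 scale (SE 0.19, quasi-likelihood adjusted p = 1.52e-08 in edgeR). Its relatives Tle1 and Tle4 were higher by 0.93 and 0.89, under a fold change of 2. The deacetylase genes Hdac1 (−0.69), Hdac2 (−0.18) and Hdac3 (−0.51) and the methyltransferase gene Ehmt2, which codes for G9a (−0.63), had negative values, and Prmt5 (0.19) a positive one. Without a threshold on the fold, 8 corepressor genes were lower and 3 higher, where 73.4% of all genes tested passed in either direction.

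Of the factors known to switch Prdm1 on or off, few were called. Of 19 listed regulators, 17 were in the table, 16 were tested, 2 were called higher (12.5%, against 10.2% of all genes tested) and 0 lower (against 9.98%), with a median log2 fold change of 0.025. The called genes were Pax5, a repressor of Prdm1 that Blimp1 represses in turn, and Il6, an inducer through Stat3. Il6 had 124, 103 and 94 counts in WT and 245, 227 and 187 in KD, so all KD libraries lay above. It rose by 1.03 on the log2 scale (SE 0.19, quasi-likelihood adjusted p = 9.37e-06 in edgeR), but fell short of a fold change of 2 without WT replicate 3 (0.95), KD replicate 1 (0.98) or KD replicate 2 (0.9984).

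The inducers Stat3, Tgfb1 and Smad3 had negative values of −0.36, −0.50 and −0.38. Of other listed regulators, Il6st (0.22) and Nfkb1 (0.15) had positive values, with every KD library above WT, and Nfkb2 (−0.11) a negative one. The AP-1 gene Jun had 5777, 5513 and 5506 counts in WT and 5720, 5250 and 5821 in KD, a log2 fold change of −0.0030 (SE 0.04, adjusted p = 0.949). Rela overlapped between the groups as well (0.045), and Relb was slightly higher (0.30, SE 0.07). Of the repressors, Bcl6 (0.32) and Mitf (0.32) were higher and Bach2 overlapped. The table has 0 genes named Irf4. In the plasma cell program that Blimp1 is known to open, 4 of 8 genes were tested and 0 were called. Over all genes tested, 20.2% were called. The log2 fold changes of the 4 genes lay between −0.60 for Creb3l2 and 0.33 for Sdc1, and Xbp1 stood at 0.0075.

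**Figure D3:**
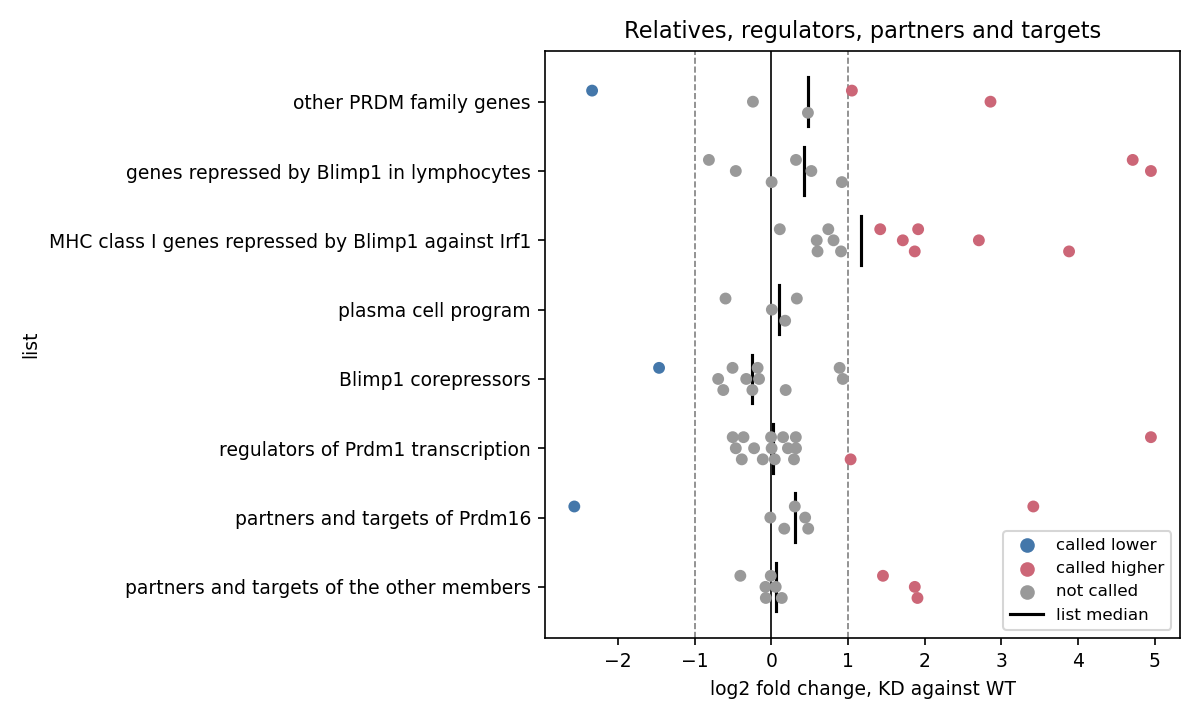
Log2 fold change, KD against WT, of every tested gene of the 8 lists of relatives, targets, corepressors, regulators and partners (points, blue called lower, red called higher, grey not called), with the list median as a vertical bar and dashed lines at a fold change of 2. The MHC class I list, with its median at 1.17, lies to the right of 0 as a whole, the regulators centre on 0.025, and Pax5 at 4.95 and Ifnb1 at 4.71 lie far to the right.

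Partners and targets of the other members gave single large differences. For Prdm16, which was not detectable above the limit, 7 of 11 listed genes were tested. Called were 1 higher (14.3%, against 10.2% of all genes tested) and 1 lower (14.3%, against 9.98%). Dio2, a deiodinase gene that brown fat uses to make active thyroid hormone, had 598, 628 and 603 counts in WT and 6982, 6059 and 6550 in KD. It rose from 16.2 ± 0.417 to 173 ± 7.73 CPM (SD, n = 3 each), which is a fitted log2 change of 3.42 (SE 0.05, quasi-likelihood adjusted p = 9.15e-34 in edgeR). Pparg, the lower gene, had 31, 21 and 33 counts in WT and 6, 8 and 0 in KD, too few for the rule by which genes were named. The binding partners Ctbp1 (0.31), Ctbp2 (0.48) and Ehmt1 (−0.013) were under a fold change of 2.

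Of 14 genes tied to the other members, 9 were tested, with a median log2 fold change of 0.058. Called were 3 higher (33.3%, against 10.2% of all genes tested) and 0 lower (against 9.98%). This list too was written with earlier results known, and its shares are no independent evidence. Spry1, the target of Prdm15, had 164, 240 and 173 counts in WT and 520, 523 and 543 in KD, a rise of 1.46 (SE 0.13, quasi-likelihood adjusted p = 4.85e-12 in edgeR). Zcwpw1, which reads the histone marks that Prdm9 sets, had 116, 119 and 110 counts in WT and 404, 455 and 436 in KD, a rise of 1.91 (SE 0.14, adjusted p = 5.53e-14). In both, all KD libraries lay well above all WT libraries. Hells, which opens chromatin with Prdm9, overlapped between the groups (−0.0068, SE 0.04, adjusted p = 0.896). Esr1, the gene of the estrogen receptor, a known partner of the Prdm2 protein and a gene that Blimp1 represses, had 29, 26 and 24 counts in WT and 105, 82 and 104 in KD. It was called higher at a log2 fold change of 1.87 (SE 0.33, adjusted p = 5.22e-06), but is outside the naming rule and was chosen after its values were seen.

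The genes nearest to Prdm1 in pattern, by the root mean square difference of their centred log2 CPM over the 6 libraries, were Ppp1r3c (0.288), Mertk (0.305), B230312C02Rik (0.325), Dlx3 (0.405) and 4930519F16Rik (0.461). Ppp1r3c, a glycogen targeting subunit of protein phosphatase 1, had 108, 91 and 91 counts in WT and 1, 1 and 3 in KD. Mertk, a receptor tyrosine kinase, had 235, 266 and 191 counts in WT and 4, 3 and 7 in KD. Dlx3, a homeobox gene of epidermis and placenta, had 81, 88 and 81 counts in WT and 0, 1 and 2 in KD. All share high WT libraries and KD libraries at or near the detection limit, where a log value depends on the small count added before the log, and with an added count of 0.5 in place of 2, 1 of the 5 genes remained.

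**Figure D4:**
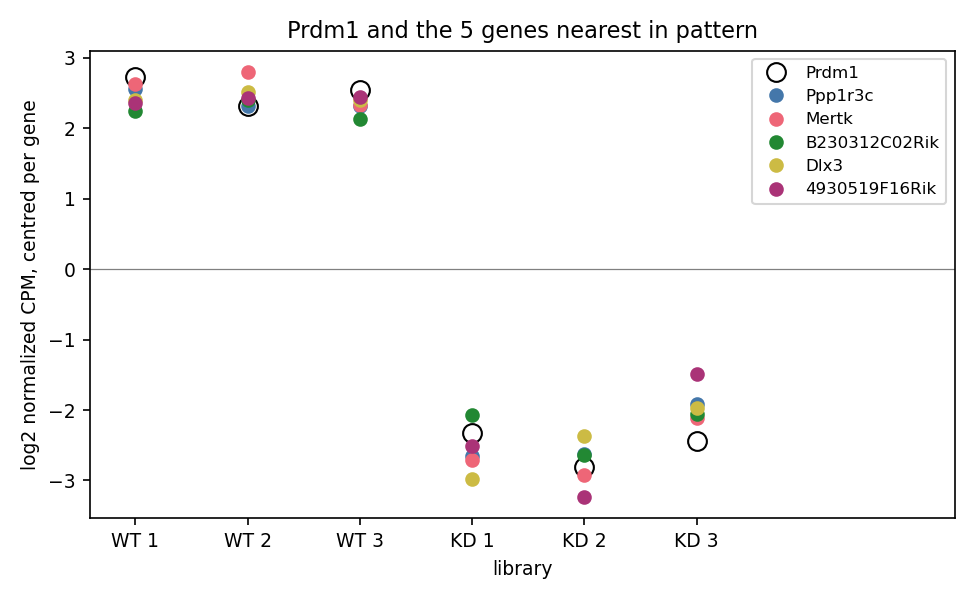
Log2 normalized CPM, centred on each gene's own mean, of Prdm1 (open circles) and the 5 genes nearest to it (filled) in the 6 libraries. All 6 genes sit above 2 in the WT libraries, and in the KD libraries Prdm1 lies between −2.33 and −2.81 with the others between −1.49 and −3.23.

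Prdm1 is also active in skin, and epidermal genes were uneven among the controls. Krt5 had 0, 0 and 92 counts, Lor 0, 0 and 52 and Krt14 7, 30 and 192 counts in WT replicates 1, 2 and 3, while Krt5 and Lor had 0 counts in every KD library. Of the 7 epidermal markers, 1 (Ivl, at 0 to 7 counts) was higher in every KD library, against 37.8% of all genes tested. Krt14 was called lower, but with 31, 28 and 19 counts in KD its groups overlapped. The summed level of the 7 was 2.07 to 11.5 CPM in WT and 2.12 to 3.31 CPM in KD. The 624 counts of Prdm1 in WT replicate 3 lay between those of the other controls, and without that library its log2 fold change was −5.19. Over all 6 fits that left out 1 library it stayed between −5.30 and −5.04.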

How the data were processed

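Per the study's methods, the authors trimmed adapters and mapped reads with HISAT2 to hg19. The deposited values are whole-number counts per gene, read as not normalized from the values themselves. The processing notes name HISAT2, featureCounts, DESeq2 and hg38. Neither annotation nor strandedness is given in the sources used here, so overlapping genes may share reads. Columns were matched to samples by the labels' descriptions, and 0 columns were left unused. Totals lay between 36979221 and 38799331 counts.

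Tests used edgeR 4.0.16 under R 4.3.3: filterByExpr (minimum count 10, minimum total 15), TMM scaling, quasi-likelihood test with group only, Benjamini-Hochberg over 13497 genes. Calls needed an adjusted p under 0.05 and a fold change over 2. Standard errors come from dividing each log2 value by the root of its F statistic. CPM use TMM-scaled totals. Scripts were tested on simulated data.

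The members and lists were chosen with earlier results of these data known. Named, apart from some items not reported here, were all members and family genes, up to 3 called genes per direction and list with at least 100 counts in each library of the higher group, and the 5 genes nearest to Prdm1; other listed genes were picked for mention after their values were seen. Sequences are from RefSeq. Alternatives were other scalings, filters, DESeq2 1.42.0, a replicate block, other prior counts, no fold threshold and each library left out.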

Additional observations from a re-analysis of the deposited data

How the results depend on the processing

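The log2 fold change of each tested member kept its sign under every alternative. The median over all genes, −0.0061, did not: it was 0.000727 with DESeq2 size factors in edgeR and 0.0135 with no low-count filter. The signs of listed genes near 0, such as Jun and Hells, were not followed across the alternatives. The log2 fold change of Prdm1 lay between −5.30 and −5.04 throughout, including the DESeq2 Wald test (−5.19), and 1 member was called lower in each fit. Of the comparisons with an alternative, 312 stayed within 1.5 times a count or 1 SD of a value, and 27 did not. Requiring at least 10 counts in every sample gave 903 genes called higher, 1 higher gene among those repressed in lymphocytes (Ifnb1 was filtered out) and 0 lower Prdm16 partners (Pparg was filtered out). With no low-count filter, 1 gene repressed in lymphocytes (Tbx21) was called lower. Without the fold threshold, 4960 genes were called lower and 4952 higher, 36.7% each and 73.4% together of the 13497 genes tested. For the lists, lower and higher genes were then 8 and 3 of 11 tested (corepressors), 1 and 5 of 8 (repressed in lymphocytes) and 0 and 12 of 12 (MHC class I). They were 5 and 7 of 16 (regulators), 1 and 2 of 4 (plasma cell) and 2 and 3 of 5 (other family). For the partner lists they were 1 and 5 of 7 (Prdm16) and 1 and 4 of 9 (other members). Of the 6 members tested, 1 was lower and 4 were higher. With each library left out, higher genes ranged from 0 to 1 for corepressors, from 1 to 2 for other family genes (Prdm11) and from 1 to 2 for regulators (Il6). With prior count 0.5, 1 of the 5 genes nearest to Prdm1 remained.

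Replicate numbers are shared between the groups, and the deviations of same-numbered libraries had correlations of 0.042, −0.015 and −0.021 over genes. The pairs of WT replicate 2 with KD replicate 3 (0.038) and WT replicate 3 with KD replicate 2 (0.039) were also positive. All remaining pairs were negative. Correlations this weak cannot decide whether libraries were paired. With the replicate number as a block, 1316 genes were called lower and 1360 higher, the log2 fold change of Prdm1 was −5.19, and no count of members or listed genes moved by over 1.5 times. Depth limits Prdm6, Prdm8 and Prdm16, which had at most 2 counts in a library.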
